A study of Bos taurus with 15 samples.

Results

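The epithelium of the newborn (NB) small intestine was set against that of the NB large intestine. A barcode was counted as an epithelial cell when it had 500 to 4000 genes, under 50000 unique molecular identifiers (UMIs, counted RNA molecules), at least 1 UMI of *EPCAM*, and 0 UMIs of both *PTPRC* and *COL1A2*. *EPCAM* encodes an adhesion molecule of epithelial cells, *PTPRC* the CD45 antigen of leukocytes, and *COL1A2* a collagen chain made by fibroblasts. This rule kept 7901 barcodes of the 172405 in the 15 libraries of the series: 3819 from the duodenum, 1294 from the jejunum, and 653 from the ileum (small intestine, 5766), and 366 from the cecum, 972 from the colon, and 797 from the rectum (large intestine, 2135). The UMIs of all members of a library were summed, so each segment gave 1 profile and each side had 3.

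The series holds droplet-based single-cell RNA sequencing of tissues from the digestive system of Holstein dairy cattle, 11 libraries from NB calves and 4 from adult (AD) cattle. No treatment, diet group, or genetic change is given for any library, and the NB intestinal tissues all went through 1 dissociation scheme with EDTA, trypsin, and a lamina propria kit after the outer muscle had been taken off. The AD duodenum, jejunum, cecum, and colon came from 1 lactating cow, and the AD jejunum and colon were dissociated with another kit than the AD duodenum and cecum. The NB tissues came from 3 calves, but the labels tie no library to a calf. The 3 libraries of a side are therefore different gut segments, not repeated samples of 1 segment, and every *P* value below measures the spread among segments. Animal and segment cannot be told apart.

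The absorptive cells of the small intestine carry digestive enzymes and nutrient transporters on their brush border and pack dietary fat into lipoproteins. The large intestine takes up salt, water, and short-chain fatty acids, and its cells handle bicarbonate through carbonic anhydrases and anion exchangers. Regional identity along the gut is held by transcription factors, among them GATA4 in the proximal small intestine and the HOX genes, whose later members are switched on toward the rectum. In the newborn calf the small intestine also takes up colostrum proteins by endocytosis.

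The members carried epithelial genes in all libraries. A UMI of at least 1 of 18 further epithelial genes found in the files (keratins, cadherins, villin, and others) was present in 80.7% of the ileum members and in 93.4% to 97.4% of those of the other 5 libraries. *EPCAM* itself, which chose the cells, was at 1278, 1104, and 980 CPM (UMIs of a gene per 1000000 UMIs of the members of that library) in the duodenum, jejunum, and ileum and at 926, 1201, and 1154 CPM in the cecum, colon, and rectum. At the edge of the rule, the summed level of the epithelial genes was higher in barcodes with more *EPCAM* UMIs. In the rectum it was 491 CPM in barcodes with 0 *EPCAM* UMIs, 1450 CPM in those with 1, and 9175 CPM in those with 2 or more. In the ileum the same levels were 121, 210, and 5236 CPM. By this CPM level, the members with a single *EPCAM* UMI were nearer to the barcodes outside the rule than to the other members in all 6 libraries. By the share with a UMI of these epithelial genes, they were nearer to the other members in the duodenum, cecum, colon, and rectum. In the colon these shares were 52.4%, 83.0%, and 99.9% at 0, 1, and 2 or more *EPCAM* UMIs, and in the ileum 36.1%, 49.2%, and 98.8%. Members with a single *EPCAM* UMI made up 16.8% (duodenum) to 41.8% (cecum) of a library.

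Median UMIs per member ran from 6498 in the cecum to 10886 in the duodenum, and summed UMIs from 3483369 in the cecum to 43970684 in the duodenum. A count of 0 therefore allows up to 0.861 CPM in the cecum and 0.0682 CPM in the duodenum (3 counts, counting error only). Members with 1 or more UMIs of the leukocyte list made up 61.5% to 86.4% of a library. The leukocyte list, 37 symbols beside *PTPRC*, summed to 436, 709, and 2001 CPM in the duodenum, jejunum, and ileum, and to 1356, 793, and 710 CPM in the cecum, colon, and rectum. The stromal list summed to between 55.0 CPM (colon) and 394 CPM (rectum), and 82.2% of cecum and 83.6% of rectum members carried a UMI of it, against 21.3% to 57.9% in the other 4 libraries. The endothelial list summed to 540, 772, and 365 CPM in the small and 878, 138, and 669 CPM in the large intestine. Among the members, 9 barcode sequences occurred in more than 1 library.

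The ileum stood apart. On a multidimensional scaling of the 6 profiles, the first axis (53.1% of variance) placed the duodenum at -2.66, the jejunum at -2.49, the ileum at -0.44, the colon at 1.28, the cecum at 1.89, and the rectum at 2.43. The ileum lay alone on the second axis (-2.62, with the other 5 libraries between -0.85 and 1.07). By Spearman correlation the ileum was nearest to the colon (0.909), then to the jejunum (0.902) and the duodenum (0.864). The B cell genes *CD79A* and *MS4A1* were at 117 and 114 CPM in the ileum members and at or below 15.2 CPM in all other libraries (named after their values had been seen). Results are given below with and without the ileum where it changes them. The ileum was singled out on these same profiles. Fits without it set 2 libraries, the duodenum and jejunum (Spearman correlation 0.963), against 3. For genes that are low in the ileum, their *P* values are therefore a description and no separate support.

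Over 11621 genes tested, 152 differed between small and large intestine at an adjusted *P* value under 0.05 (edgeR quasi-likelihood test, Benjamini-Hochberg adjustment), which was 1.31% of the genes. The large intestine was higher for 118 of them (1.02%) and the small intestine for 34 (0.293%). For all 152, the 3 values of one side lay wholly above those of the other, while 24.0% of all genes tested showed such separation. The median log2 difference of all genes, small minus large, was 0.01. The calls depended on single libraries in both directions. Without the ileum 301 genes (2.46% of 12227) were higher in the small and 300 (2.45%) in the large intestine, and 149 of the 152 calls were among them. Without the duodenum, the jejunum, the cecum, or the rectum the counts fell to 1 and 1, 0 and 0, 0 and 0, and 0 and 0 (1876, 1243, 1519, and 1199 genes had an unadjusted *P* value under 0.05). Without the colon they were 39 and 118, and 83 of these 157 calls were among the 152. Those of the 152 genes that could be tested kept their direction in each of these fits. In summed profiles, fewer cells of a type and less RNA per cell cannot be told apart.

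**Figure D1:**
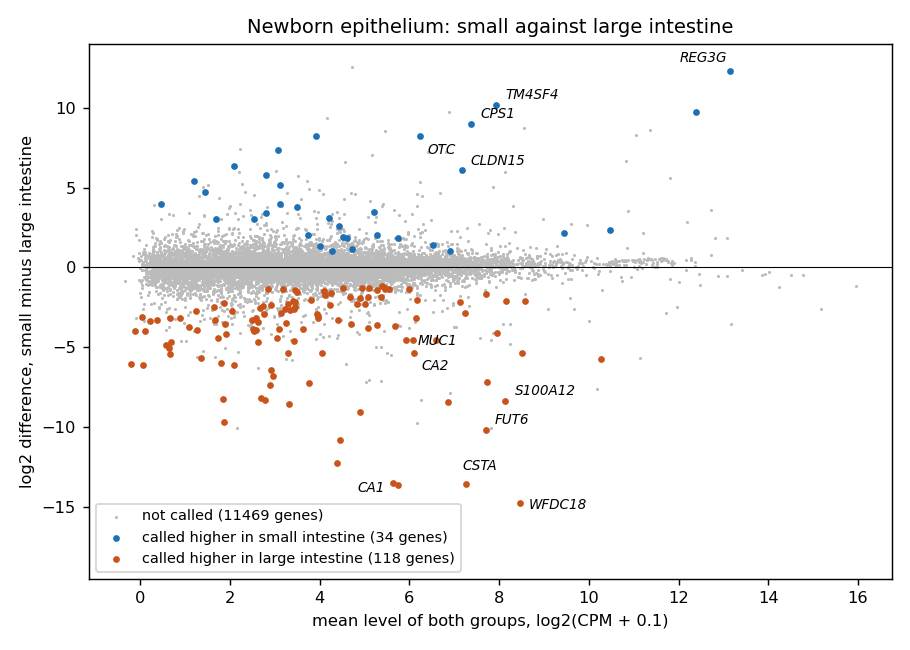
Each point is 1 of 11621 genes in NB EPCAM cells; the horizontal axis is the mean level of the small and large intestine group (log2 of CPM + 0.1) and the vertical axis the fitted log2 difference, small minus large. Blue points are the 34 genes called higher in the small intestine and orange points the 118 called higher in the large intestine; *REG3G* is the highest blue point and *WFDC18* the lowest orange one.

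The 2 named genes outside the lists with the highest fitted difference toward the small intestine were both urea cycle enzymes. *CPS1*, the mitochondrial enzyme that makes carbamoyl phosphate from ammonia, was at 419 CPM in the duodenum, 470 in the jejunum, and 110 in the ileum, against 0 in the cecum, 1.24 in the colon, and 0.265 in the rectum. *OTC*, the next enzyme of the pathway toward citrulline, was at 185, 177, and 89.3 CPM in the same small intestinal order and at 0.287, 0.955, and 0 CPM in the large intestine. Both genes were thus high in every small intestinal library and at or below 1.24 CPM in every large one, with no overlap. The log2 difference was 9.0 for *CPS1* (SE 1.05, adjusted *P* = 0.0223, n = 3 per side) and 8.22 for *OTC* (SE 0.85, adjusted *P* = 0.0197). In the AD cow both were at 0 CPM in the cecum and colon, and *CPS1* was at 37.5 CPM in the duodenum and 437 CPM in the jejunum.

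Another 3 genes of nitrogen metabolism, chosen after their values were seen, were not called. *OAT*, which links ornithine to proline and glutamate, was at 413, 301, and 86.2 CPM in the small and 43.1, 32.0, and 63.5 CPM in the large intestine (adjusted *P* = 0.13). *ASS1*, which joins citrulline to aspartate, had an adjusted *P* value of 0.229, and its levels in the ileum (60.3 CPM) and rectum (66.0 CPM) overlapped. *NAGS*, whose product activates CPS1, stayed at or below 0.978 CPM in all 6 libraries and was too low to test.

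The tight junction gene *CLDN15*, a claudin that forms cation pores, was the 1 called gene of its list (16 tested, median log2 difference -0.52). It was at 318, 334, and 194 CPM in the duodenum, jejunum, and ileum and at 6.03, 4.58, and 1.72 CPM in the cecum, colon, and rectum. The sides were far apart, with the lowest small intestinal value in the ileum. Its log2 difference was 6.09 (SE 0.55, adjusted *P* = 0.0184). After each cell had been thinned to 1000 UMIs, 21.6% of duodenal members and 1.93% of duodenal COL1A2 cells carried a *CLDN15* UMI (69.1% and 5.81% before thinning, at median depths of 10886 and 3639 UMIs).

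Of 13 brush border hydrolases tested, 3 were higher in the small intestine and 0 in the large, with a median log2 difference of 1.40. *SI*, sucrase-isomaltase, was at 24.9, 19.4, and 5.07 CPM in the small intestine and at 0, 0.191, and 0 CPM in the large. *TREH*, trehalase, was at 46.5, 39.1, and 4.78 CPM against 0, 0.191, and 0 CPM. Each of these disaccharidases rested on only 2 UMIs in the whole large intestine, which gave pooled ratios of 232 for *SI* (95% counting interval 64.2 to 1920, adjusted *P* = 0.0358) and 435 for *TREH* (120 to 3595, adjusted *P* = 0.0472). *MEP1B*, a subunit of the metalloprotease meprin, was at 36.1, 45.8, and 16.8 CPM against 2.87, 3.25, and 4.76 CPM, a log2 difference of 3.13 (SE 0.45, adjusted *P* = 0.0366).

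Lactase, the enzyme of milk sugar digestion, was found almost only in the duodenum and jejunum. *LCT* was at 62.2 CPM in the duodenum and 35.3 CPM in the jejunum, at 0 CPM in the ileum, cecum, and rectum, and at 0.0955 CPM in the colon. It did not pass the filter on low counts over 6 libraries. Without the ileum, 7 hydrolases were higher in the small intestine and 2 in the large, and *LCT* was among the former (log2 difference 9.82, adjusted *P* = 0.00378). *ANPEP*, aminopeptidase N, showed no such order, with 2.64, 146, and 67.1 CPM in the small and 62.9, 44.4, and 159 CPM in the large intestine (adjusted *P* = 0.89).

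Lipid absorption had the highest list median (log2 difference 3.28 over 19 genes tested, 17 of them positive), yet 1 gene passed the test. This was *TM4SF4*, a tetraspanin-like membrane protein, at 971, 455, and 38.4 CPM in the small and 0.287, 0.668, and 0.132 CPM in the large intestine (log2 difference 10.20, SE 1.55, adjusted *P* = 0.0425). The apolipoproteins that form the coat of intestinal lipoproteins divided the small intestine itself. *APOA1* was at 6441 CPM in the duodenum and 14690 CPM in the jejunum, but at 17.1 CPM in the ileum, below the 220, 151, and 56.5 CPM of the cecum, colon, and rectum. After thinning, 9.09%, 4.35%, and 3.91% of cecum, colon, and rectum members carried an *APOA1* UMI. In COL1A2 cells of these libraries the shares were 6.87%, 2.22%, and 3.295%. Duodenal members and COL1A2 cells carried it in 55.1% and 23.45%. *APOA4* was at 1121 and 1134 CPM in the duodenum and jejunum and between 0.397 and 3.77 CPM in the other 4 libraries. *APOB*, the structural protein of chylomicrons, was at 227 and 216 CPM in the same 2 segments, at 1.01 CPM in the ileum, and at up to 12.1 CPM in the large intestine (colon).

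The same split held for several carriers of fat and vitamin A. *RBP2*, the retinol carrier of absorptive cells, was at 9474 and 6257 CPM in the duodenum and jejunum and at 1.32 to 19 CPM in the ileum and the large intestine. *FABP2*, the intestinal fatty acid binding protein, was at 6195 and 4457 CPM against 85.9 CPM in the ileum, 101 CPM in the colon, 0.132 CPM in the rectum, and 0 in the cecum. *FABP1*, the liver type, was at 24400 and 9179 CPM in the duodenum and jejunum, at 12 CPM in the ileum, and at 5361, 1772, and 2302 CPM in the large intestine. The ileum was thus the lowest library for *FABP1*, under every large intestinal value. None of these genes passed the test over 6 libraries (adjusted *P* between 0.126 and 0.63 for *APOA1*, *APOA4*, *APOB*, *RBP2*, *FABP2*, and *FABP1*). Without the ileum 11 lipid genes were higher in the small intestine and 1 in the large (23 tested), with log2 differences of 6.2 for *APOA1*, 9.34 for *APOA4*, and 5.04 for *APOB*. *RBP2* was then also higher (log2 difference 9.23, adjusted *P* = 0.0188), while *FABP1* and *FABP2* were not called (adjusted *P* = 0.106 and 0.163).

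**Figure D2:**
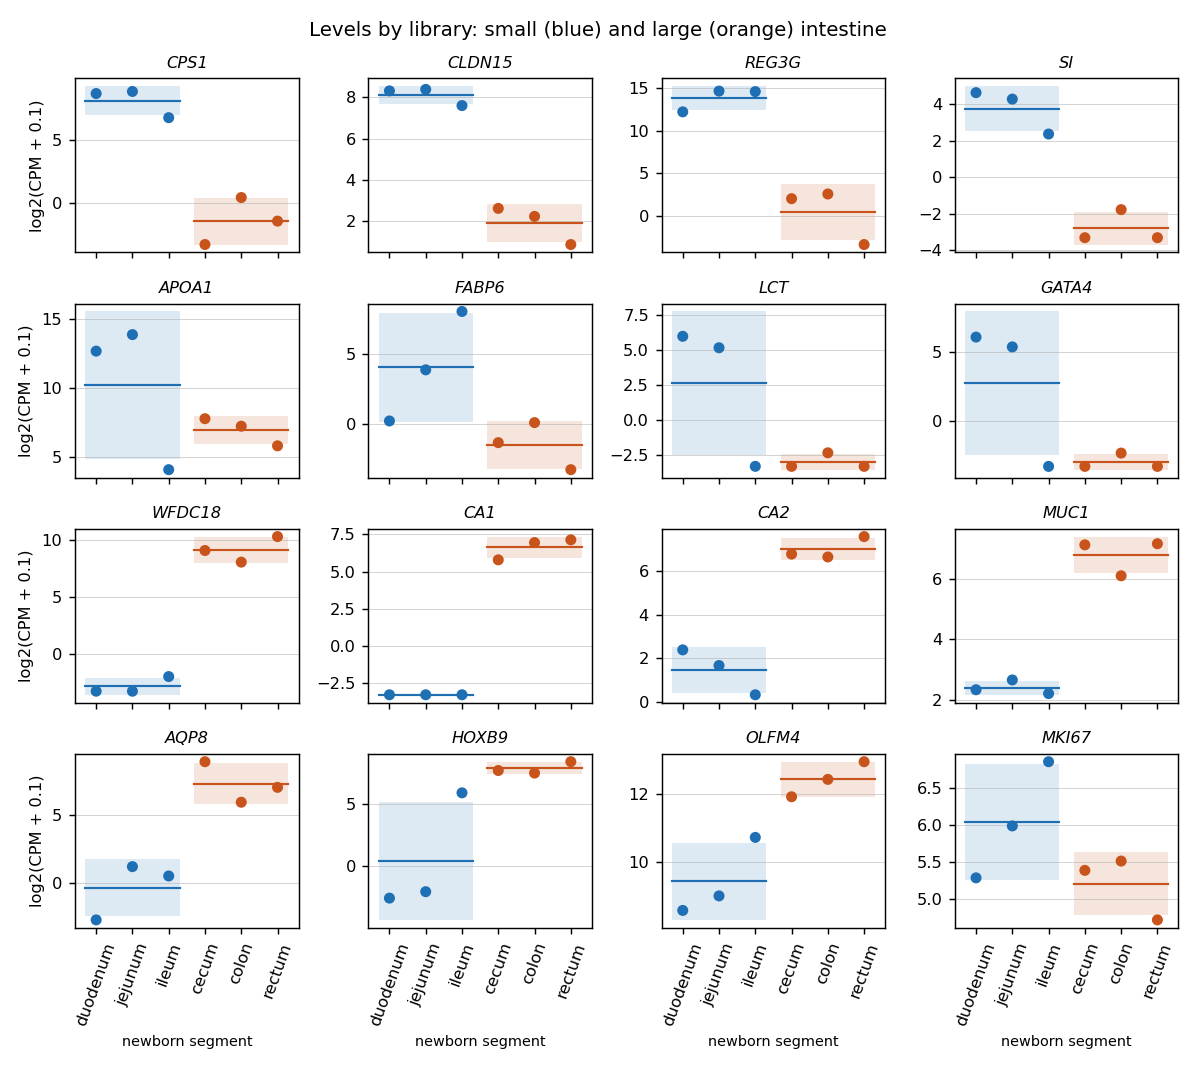
Each panel shows 1 gene in the 6 NB libraries, with the summed level of EPCAM cells as log2 of CPM + 0.1 on the vertical axis (ranges differ between panels); points are libraries, lines the mean of a side, and bands 1 SD (n = 3). *CPS1*, *CLDN15*, *REG3G*, and *SI* are high in all 3 small intestinal libraries, *APOA1*, *LCT*, and *GATA4* in the duodenum and jejunum alone, and *FABP6* in the ileum.

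The ileum members had their own absorptive gene. *FABP6*, the bile acid binding protein of the ileum, was at 276 CPM there, at 14.7 CPM in the jejunum, and at or below 1.05 CPM in the other 4 libraries. The apical bile acid transporter *SLC10A2* was far lower, at 3.19 CPM in the ileum and 3.02 CPM in the jejunum. These genes were also read in members that held at least 2 genes of the epithelial list and more UMIs of that list than of the lists of other lineages, a rule chosen after the data had been seen. The rule itself removes cells rich in leukocyte genes. In the cells left, *FABP6* was at 359 CPM in the ileum and *APOA1* at 6.61 CPM, against 6741 CPM in the duodenum. *APOA1* was then at 72.1, 155, and 3.685 CPM in the cecum, colon, and rectum, so the ileum no longer lay below the rectum.

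Nutrient transporters gave 0 calls of 22 tested (edgeR quasi-likelihood test, median log2 difference 0.37). *SLC15A1*, the peptide transporter PEPT1, was at 65.8, 132, and 10.0 CPM in the small and 10.1, 7.74, and 5.16 CPM in the large intestine (adjusted *P* = 0.164). *SLC5A1*, the sodium-glucose cotransporter, was at 58.3, 44.5, and 3.62 CPM against 7.75, 6.88, and 6.88 CPM (adjusted *P* = 0.258). In both, the ileum fell into or under the large intestinal range. Without the ileum 9 of 24 transporters were higher in the small intestine and 0 in the large, *SLC5A1* and *SLC15A1* included.

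Endocytosis and antibody transport genes of the newborn gut were tested as a list (0 of 17 called over 6 libraries, median log2 difference 0.23, and 2 of 18 without the ileum, both higher in the small intestine). *FCGRT*, the Fc receptor that carries immunoglobulin G, was at 532, 515, and 470 CPM in the small and 329, 398, and 310 CPM in the large intestine. The sides did not overlap, but the log2 difference of 0.49 did not pass the test (SE 0.20, adjusted *P* = 0.283). *CUBN*, the cubilin receptor for protein uptake, was at 49.0, 14.7, and 0.145 CPM against 8.32, 4.30, and 0.132 CPM (adjusted *P* = 0.475). Its partner *AMN* was at 247, 285, and 81.0 CPM against 98.2, 98.3, and 120 CPM (adjusted *P* = 0.369), and was called without the ileum (log2 difference 1.32). *PIGR*, the carrier of secretory antibodies, overlapped between the sides, at 1105, 297, and 286 CPM against 1109, 488, and 1159 CPM.

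In the antimicrobial list 2 genes were higher in the small intestine and 2 in the large (18 tested), and 3 and 1 without the ileum (23 tested). *REG3G*, a secreted lectin that binds bacteria, was at 4685, 25220, and 24220 CPM in the duodenum, jejunum, and ileum and at 4.02, 5.92, and 0 CPM in the cecum, colon, and rectum. *PLA2G2A* (ENSBTAG00000005759), a secreted phospholipase, was at 3485, 15360, and 13350 CPM against 5.74, 25.8, and 3.70 CPM. Both had their lowest small intestinal value in the duodenum, and both left no overlap. The log2 differences were 12.33 (SE 1.80, adjusted *P* = 0.0369) and 9.74 (SE 1.23, adjusted *P* = 0.0255). COL1A2 cells of the same libraries gave a log2 difference of 12.28 for *REG3G* (adjusted *P* = 0.00451), and after thinning 8.2% of ileum COL1A2 cells carried a *REG3G* UMI, against 21.8% of ileum members (31.7% and 47.3% before thinning, at median depths of 4758 and 9822 UMIs). In the duodenum these shares were 7.72% and 9.53% after thinning and 21.2% and 34.5% before.

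The 2 antimicrobial genes of the large intestine were *S100A12* and *LYZ1* (ENSBTAG00000011941). *S100A12*, a calcium-binding protein best known from neutrophils, was at 219, 134, and 1335 CPM in the cecum, colon, and rectum and at 0.682, 3.23, and 1.59 CPM in the small intestine (log2 difference -8.34, SE 1.30, adjusted *P* = 0.0435), and it was not called without the ileum (-8.27, adjusted *P* = 0.0505). *LYZ1* is 1 of the lysozyme genes, which form a family of near copies in cattle, so reads of related copies may have been split or lost. It was at 786, 342, and 270 CPM against 11.4, 31.7, and 42.6 CPM (log2 difference -4.11, SE 0.64, adjusted *P* = 0.0439). The symbols *PLA2G2A*, *LYZ1*, and *GZMB* each belong to more than 1 gene identifier in the files, and the identifier named is the one tested.

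Salt, water, and bicarbonate genes of the large intestine gave 4 calls of 26 tested, all higher in the large intestine (median log2 difference -1.26). *CA1*, a cytosolic carbonic anhydrase, was at 55.1, 124, and 141 CPM in the cecum, colon, and rectum and at 0 UMIs in all 3 small intestinal libraries. This made it at least 2574-fold higher in the large intestine (summed UMIs of each side, with 3 counts over the whole small intestine, most of whose UMIs are duodenal, as the limit, adjusted *P* = 0.0197). *CA2*, another cytosolic form, was at 110, 100, and 191 CPM against 5.14, 3.09, and 1.16 CPM, a log2 difference of -5.37 (SE 0.61, adjusted *P* = 0.0223). Outside the list, *CA3*, also cytosolic, was at 10.1, 8.02, and 3.31 CPM against 0 in the small intestine, at least 145-fold higher (adjusted *P* = 0.0365). COL1A2 cells held more *CA3* than the members did, at 70.9, 26.8, and 59.9 CPM in the large and 18.4, 20.2, and 8.55 CPM in the small intestine.

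Both other calls were ion transporters. *SLC9A2*, a sodium-proton exchanger, was at 19.8, 4.87, and 19.2 CPM in the large and 0.0682, 0.0702, and 0.145 CPM in the small intestine (log2 difference -7.39, SE 0.78, adjusted *P* = 0.0198). *SLC26A2*, a sulfate transporter, was at 31.6, 17.2, and 34.0 CPM against 3.09, 3.44, and 4.06 CPM (log2 difference -3.03, SE 0.31, adjusted *P* = 0.0197). Another 3 members of the list, known from colonic surface cells as *CA1* and *CA2* are, did not pass. *AQP8*, a water channel, was at 512, 63.1, and 136 CPM against 0.0455, 2.18, and 1.30 CPM, without overlap but with a wide spread (log2 difference -7.85, SE 1.51, adjusted *P* = 0.0738). *CA4*, a membrane-bound carbonic anhydrase, was at 157 CPM in the rectum and 28.7 CPM in the ileum, which exceeded the cecum (3.44 CPM) and colon (11.8 CPM). *SLC26A3*, the chloride-bicarbonate exchanger, was at 39.9, 22.5, and 71.3 CPM against 0.455, 4.70, and 17.4 CPM (adjusted *P* = 0.283).

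In the AD cow, whose libraries hold 61 to 411 EPCAM cells and were not tested, *CA1* was at 1922 CPM in the cecum and 594 CPM in the colon and at 0 in the duodenum and jejunum. *CA2* was at 1176 and 1617 CPM in the AD cecum and colon and at 0 and 1.27 CPM in the AD duodenum and jejunum. *CA4* was at 920 and 786 CPM in the AD cecum and colon, and at 11.1 CPM in the jejunum. These 3 carbonic anhydrases were thus higher in both AD large intestinal libraries than in any NB library.

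Among genes outside the lists, *WFDC18*, a small secreted protein with a whey acidic protein domain, separated the sides by the widest fitted difference. It was at 550, 270, and 1290 CPM in the cecum, colon, and rectum, with 1 UMI in the whole small intestine (pooled ratio 43880, 95% counting interval 7874 to 1733000, adjusted *P* = 0.0184). A *WFDC18* UMI was present in 43.8% of rectum members and 4.81% of rectum COL1A2 cells after thinning (70.4% and 17.3% before, at median depths of 7466 and 5904 UMIs). *CSTA*, the protease inhibitor cystatin A, was at 817, 65.5, and 38.9 CPM in the large intestine and also had 1 UMI in the small. Its level in the cecum was far above those in the colon and rectum, and it was not called without the ileum (adjusted *P* = 0.0725). Its log2 difference stayed between -15.25 and -11.05 over the alternatives in which it was tested. With 1 UMI in the small intestine in the main analysis, the fitted size depends on that UMI and the prior count.

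Another 4 of the leading genes encode enzymes that act on sugar chains, a description made from the calls and not tested as a group. *FUT6*, a fucosyltransferase, was at 251, 148, and 853 CPM in the large and 0.364, 0.140, and 0.725 CPM in the small intestine (log2 difference -10.17, SE 1.05, adjusted *P* = 0.0197). *CHST4*, a sulfotransferase, was at 19.8, 49.1, and 110 CPM against 0.182, 0, and 0 CPM (log2 difference -9.03, SE 1.06, adjusted *P* = 0.0223). *ST8SIA6*, a sialyltransferase, was at 13.2, 23.2, and 4.23 CPM, and *B3GALT5*, a galactosyltransferase, at 7.18, 5.63, and 8.2 CPM in the large intestine, with 2 UMIs and 1 UMI in the small. Of enzymes with related roles that were looked up after these values had been seen, *GCNT3* (log2 difference -3.58), *ST6GALNAC6* (-3.52), and *GALNT17* (-5.66) were also called higher in the large intestine, *FUT8* was not (16.7 to 32.2 CPM, log2 difference 0.17, adjusted *P* = 0.788), and *FUT2* stayed between 0.580 and 1.59 CPM in all 6 libraries and was not tested.

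Other leading genes of the large intestine were *UPK1B*, a uroplakin, and *SPTSSB*, a small subunit of serine palmitoyltransferase at the start of sphingolipid synthesis. *SPTSSB* was at 215, 78.7, and 402 CPM in the large and 0.273, 0.140, and 2.32 CPM in the small intestine (log2 difference -8.45, SE 1.24, adjusted *P* = 0.0372). *UPK1B* was at 10.1, 9.07, and 39.8 CPM with 3 UMIs in the small intestine. Both had their highest value in the rectum. Of the 118 genes called higher in the large intestine, 64 were highest in the rectum, 35 in the cecum, and 19 in the colon.

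The leading genes of the small intestine beside *CPS1* and *OTC* were lower in level. *GHR*, the growth hormone receptor, was at 29.0, 21.9, and 11.9 CPM in the small and 2.01, 1.72, and 0.793 CPM in the large intestine (log2 difference 3.80, SE 0.51, adjusted *P* = 0.0319). *KCNQ1*, a potassium channel, was at 20.7, 16, and 11.4 CPM against 0.861, 1.15, and 0.926 CPM (log2 difference 3.95, SE 0.36, adjusted *P* = 0.0184). *TMEM86B*, a lysoplasmalogenase, was at 68.6, 101, and 35.1 CPM against 6.89, 7.64, and 3.31 CPM (log2 difference 3.48, SE 0.52, adjusted *P* = 0.041). The order within the small intestine was not the same for all, since *SLC1A3*, a glutamate transporter, was lowest in the duodenum (7.73 CPM) and highest in the ileum (21.4 CPM), against 0.382 CPM or less in the large intestine.

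The remaining leading genes of the small intestine were 4 in number. *LMO1*, a transcriptional cofactor, was at 26.8, 18.4, and 4.93 CPM, and *MMP7*, a matrix metalloprotease known from Paneth cells, at 5.07, 5.05, and 5.22 CPM. *MYRF*, a membrane-bound transcription factor, was at 3.48 to 5.48 CPM, and *NKD1*, a WNT pathway inhibitor, at 1.48 to 2.95 CPM. All 4 stayed at or below 0.668 CPM in the large intestine. *MYRF* and *NKD1* rested on 2 and 3 UMIs in the large intestine, with pooled ratios of 53.4 (95% counting interval 14.7 to 442) and 14 (4.68 to 68.7).

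Of the regional transcription factors tested over 6 libraries, none was called (0 of 15 proximal and 0 of 11 distal regulators, edgeR quasi-likelihood test, 2038 genes with an unadjusted *P* value under 0.05). *GATA4* and *CREB3L3* did not pass the filter on low counts over 6 libraries and were not among those tested. The levels show where the ileum stood. *GATA4* was at 66.7 CPM in the duodenum, 40.6 CPM in the jejunum, 0 in the ileum, cecum, and rectum, and 0.0955 CPM in the colon. *CREB3L3*, a regulator of lipid metabolism genes, had the same form, with 91.1, 86.3, and 0 CPM in the small intestine and at most 0.191 CPM in the large. *GATA5* instead reached the ileum, at 53.8, 47.5, and 31.3 CPM in the small and 2.3, 3.92, and 0.132 CPM in the large intestine (log2 difference 4.30, SE 0.84, adjusted *P* = 0.0769). *CDX1* was at 61.1, 48.6, and 94.8 CPM in the small and 122, 159, and 179 CPM in the large intestine, without overlap but not called (log2 difference -1.24, SE 0.28, adjusted *P* = 0.11). Without the ileum 4 of 19 proximal factors were called higher in the small intestine (*GATA4*, *CREB3L3*, *GATA5*, and *ONECUT2*, adjusted *P* = 0.00347, 0.00347, 0.0427, and 0.0325) and 1, *CDX1*, in the large (adjusted *P* = 0.0325). Other gut factors did not follow the division, among them *CDX2* (36.6 to 80.1 CPM, adjusted *P* = 0.992), *GATA6* (9.76 to 18.1 CPM), *HNF4A* (0.574 to 4.12 CPM), and *HNF4G* (57.5 to 225 CPM).

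Both *HOXA9* and *HOXB9*, of the distal list, were present in the ileum as well as in the large intestine. *HOXB9* was at 0.0682 and 0.140 CPM in the duodenum and jejunum, 58.4 CPM in the ileum and 202, 175, and 330 CPM in the cecum, colon, and rectum. *HOXA9* was at 0.614 and 1.05 CPM, then 140 CPM in the ileum and 226, 220, and 162 CPM in the large intestine. For both genes the ileum lay between the other small intestinal libraries and the large intestine, and on the log2 scale nearer to the latter. Their adjusted *P* values were 0.396 and 0.552 with the ileum and 0.00347 and 0.00347 without it. The median over the distal list moved from -2.48 (11 tested, 0 called) to -8.55 (14 tested, 6 called higher in the large intestine).

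Some HOX genes marked neither side. *HOXC9* was at 39.1, 33.0, and 54.5 CPM in the jejunum, ileum, and cecum, at 1.16 CPM in the duodenum, and at 0 and 0.132 CPM in the colon and rectum. *HOXD11* was found only in the colon (5.06 CPM) and rectum (61.5 CPM). The most posterior genes were detected in 1 or 2 libraries at low level, with *HOXA13* at 5.35 CPM in the colon and 2.51 CPM in the rectum, and *HOXB13* and *HOXD13* at 1.06 and 1.85 CPM in the rectum. *HOXC9*, *HOXD11*, *HOXA9*, *HOXB9*, *GATA5*, *ONECUT2*, and *CREB3L3* were named after their values had been seen.

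The AD cow has no ileum or rectum library in the series, so only small and large intestine can be set side by side for *GATA4* and *HOXB9*. *GATA4* was at 72.4 and 91.0 CPM in the AD duodenum and jejunum and at 0 in the AD cecum and colon, where *HOXB9* was at 390 and 270 CPM. *HOXB9* was at 0 in the AD duodenum and jejunum, where a count of 0 allows up to 8.05 and 0.954 CPM.

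**Figure D3:**
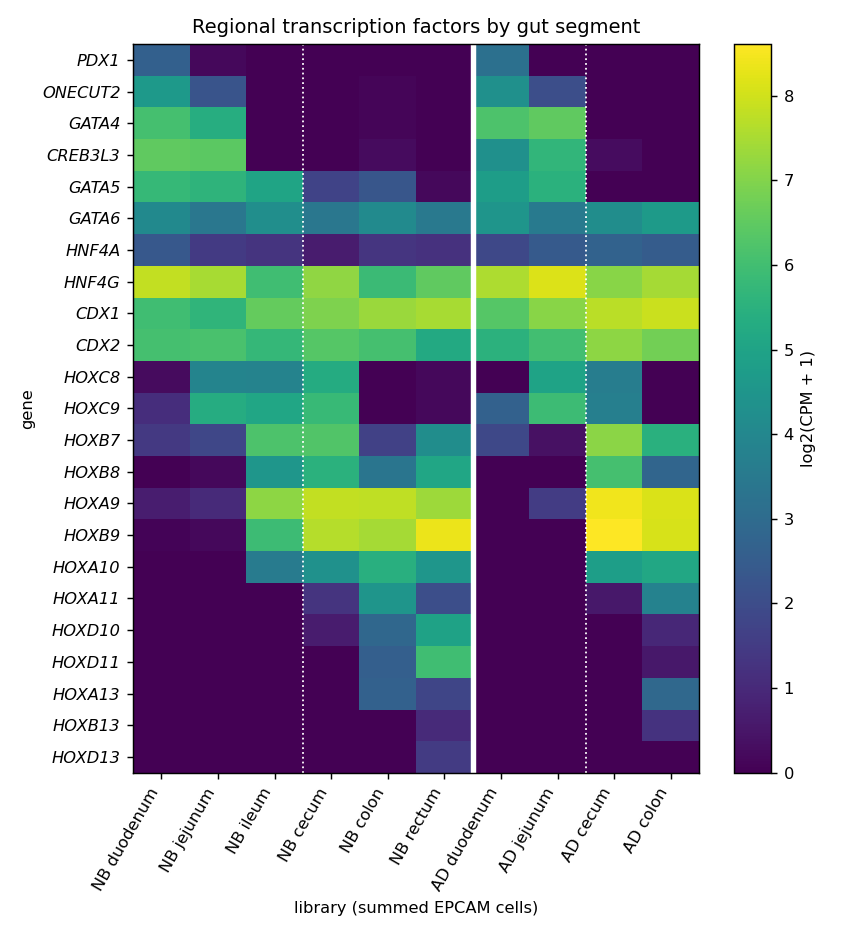
Rows are transcription factor genes and columns libraries; colour gives the level of summed EPCAM cells as log2 of CPM + 1, with the 6 NB libraries left and the 4 AD libraries right of the thick line and dotted lines between small and large intestine. *GATA4* and *CREB3L3* end before the NB ileum, while *HOXA9* and *HOXB9* begin in it and run through the large intestine.

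Among 13 goblet cell genes tested, 1 was called with all 6 libraries and 2 without the ileum. The former was *SYTL2*, a protein of granule release, which was higher in the large intestine (35.0, 36.5, and 43.1 CPM against 2.73, 2.88, and 7.25 CPM, log2 difference -3.28, SE 0.40, adjusted *P* = 0.0248). *TFF3*, the goblet cell trefoil peptide, was at 895, 960, and 858 CPM in the small and 344, 522, and 180 CPM in the large intestine, without overlap but not called (log2 difference 1.32, SE 0.40, adjusted *P* = 0.18). The membrane mucin gene *MUC1* was at 140, 68.5, and 143 CPM in the large and 4.91, 6.18, and 4.49 CPM in the small intestine (log2 difference -4.54, SE 0.36, adjusted *P* = 0.0184).

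Of the enteroendocrine list, 0 of 18 genes were called (median log2 difference -0.01), and 3 of 20 without the ileum. The latter were *GHRL*, ghrelin (log2 difference 13.25), and *MLN*, motilin (8.34), higher in the small intestine, and *INSL5*, insulin-like peptide 5 (-7.87), higher in the large, all named after their values had been seen. *GHRL* was at 56.5, 98.3, and 3.48 CPM in the small intestine and at 0 UMIs in the large, and *INSL5* was at 0 UMIs in the small intestine and at most 3.06 CPM in the large, so both fitted values depend on the prior count. *CHGA*, a granule protein shared by these cells, was at 69.7, 54.8, and 546 CPM in the small and 348, 576, and 111 CPM in the large intestine. The cecum value rested on 9 of 366 members. It was 88.5 CPM in members with at least 2 *EPCAM* UMIs, but 429 CPM in those whose epithelial UMIs outnumbered other lineages. *GCG*, proglucagon, was at 185 and 754 CPM in the jejunum and ileum and 312 CPM in the colon, and at or below 1.18 CPM in the duodenum, cecum, and rectum. *PYY*, peptide YY, was at 58.7 CPM in the ileum and 96.6 CPM in the colon, and at or below 3.04 CPM elsewhere. The *GCG* UMIs came from 13 of 1294 jejunum, 26 of 653 ileum, and 21 of 972 colon members, so few cells set these levels.

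Among 18 stem cell genes, 0 were called (median log2 difference -0.31), and 3 without the ileum, all higher in the large intestine. *OLFM4*, a secreted protein of crypt cells, was at 382, 514, and 1701 CPM in the duodenum, jejunum, and ileum and at 3907, 5574, and 8005 CPM in the cecum, colon, and rectum. The sides did not overlap, with a log2 difference of -2.84 (SE 0.64, adjusted *P* = 0.111), and the gene was called without the ileum (-3.71, adjusted *P* = 0.0159). *LGR5*, the receptor of crypt base stem cells, stayed between 0.523 and 6.68 CPM.

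All but 1 of 36 cell division genes had a positive log2 difference, with a median of 1.32, and 13 of them did not overlap, against 13.2% of all genes tested that were higher in the small intestine without overlap. None was called, with or without the ileum. *MKI67* was at 39.1, 63.6, and 116 CPM in the small and 41.9, 45.7, and 26.3 CPM in the large intestine (log2 difference 0.86, SE 0.41, adjusted *P* = 0.333). The ileum was the highest library for the summed list, at 3797 CPM, against 1118 and 1883 CPM in the duodenum and jejunum and 696 to 1224 CPM in the large intestine. Without the ileum the list median was 0.74. B cell genes were high in the same ileum members, and their part in the level of the division genes was not tested. In the ileum members whose epithelial UMIs outnumbered other lineages, a rule that itself removes cells rich in B cell genes, the summed list was at 2750 CPM and *MKI67* at 77.6 CPM. In the 72 ileum members with no UMI of the lists of other lineages, these levels were 3302 and 105.5 CPM.

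**Figure D4:**
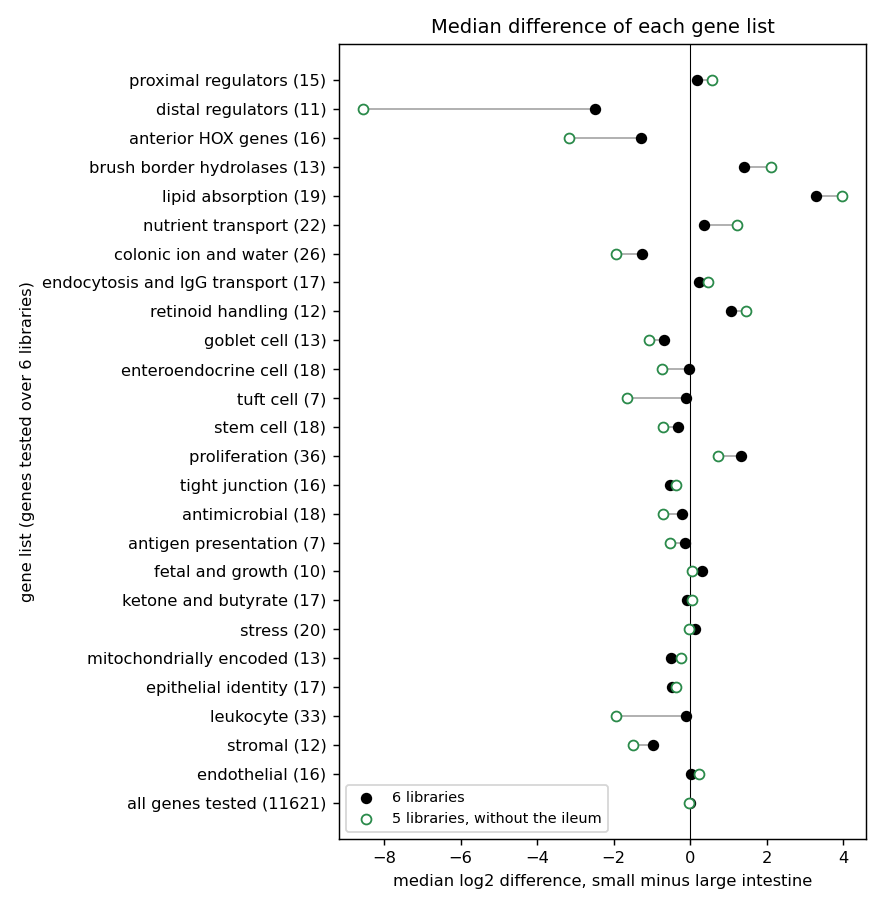
Each row is a gene list and the horizontal axis is the median log2 difference of its tested genes, small minus large intestine; filled points use all 6 NB libraries and open points the 5 without the ileum (numbers of genes tested stand for 6 libraries). Lipid absorption has the highest filled point (3.28), and the distal regulators move farthest when the ileum is left out, from -2.48 to -8.55.

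Some called genes are markers of other lineages. Of 33 leukocyte genes tested, 3 were called, all higher in the large intestine, against a list median of -0.11. Without the ileum 10 of 35 were called, all higher in the large intestine, with a median of -1.93. *CD3E*, a chain of the T cell receptor complex, was at 8.04, 8.12, and 17.1 CPM in the large and 0.842, 0.702, and 0.725 CPM in the small intestine. *CPA3*, a mast cell protease, was at 11.8, 2.77, and 6.22 CPM against 0.341, 0.491, and 0.290 CPM, and *GZMB* (ENSBTAG00000053015), a protease of cytotoxic cells, at 122, 54.9, and 108 CPM against 9.05, 10.3, and 3.48 CPM. The log2 differences were -3.89, -4.17, and -3.65. Further genes of these lineages were found among the 118 after the calls had been seen, among them the mast cell genes *TPSB2* and *HDC* and the lymphocyte genes *LAT* and *CXCR6*. In members whose epithelial UMIs outnumbered other lineages, *CD3E* was at 2.12 to 2.92 CPM in the large and 0.122 to 0.235 CPM in the small intestine. Of the stromal list, 0 of 12 were called (median -0.97), and of the endothelial list 0 of 16 (median 0.04).

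The same comparison was made in the 8727 COL1A2 cells of these libraries, to give the level of each gene in cells outside the epithelium. Of 12230 genes tested in them, 121 differed (0.989%), 61 higher in the small (0.499%) and 60 in the large intestine (0.491%). In PTPRC cells 0 of 12186 genes were called (edgeR quasi-likelihood test, 996 with an unadjusted *P* value under 0.05). Of the 152 genes called in EPCAM cells, 113 could be tested in COL1A2 cells, and 9 were called there in the same direction. A fit over both cell classes, with the library as a block, tested whether the difference between the sides itself differed between classes. Of 13416 genes, 83 did (0.619%), and 33 of these were among the 152, all with the same sign as the difference in EPCAM cells. Both fits use the same EPCAM profiles, so this overlap and the shared sign are no separate support.

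*CLDN15*, *GHR*, *WFDC18*, *CA2*, *SPTSSB*, and *SYTL2* were among these 33. For *CA2* the EPCAM cells differed by -5.37 on the log2 scale and the COL1A2 cells by 0.33, although 30.0% to 49.8% of COL1A2 cells carried a *CA2* UMI in each library, at median depths of 3639 to 7064 UMIs. For *CLDN15* the values were 6.09 and 1.36. Other genes had fitted differences of like size in both classes. *CPS1* differed by 9.0 and 8.82, *OTC* by 8.22 and 7.51, *REG3G* by 12.33 and 12.28, and *FUT6* by -10.17 and -9.13, and for none of the 4 was the difference between classes called (adjusted *P* of 0.92, 0.893, 0.841, and 0.86). In COL1A2 cells *CPS1* and *REG3G* had 0 UMIs in the cecum, colon, and rectum, and *FUT6* had 0 in the duodenum, jejunum, and ileum. Their fitted values in that class therefore depend on the prior count, and their size is not a measured one. The levels in COL1A2 cells were far lower. After thinning, 25.8% of duodenal members and 2.62% of duodenal COL1A2 cells carried a *CPS1* UMI (67.4% and 6.76% before). RNA carried between droplets can give such UMIs, and its part in these differences was not tested.

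**Figure D5:**
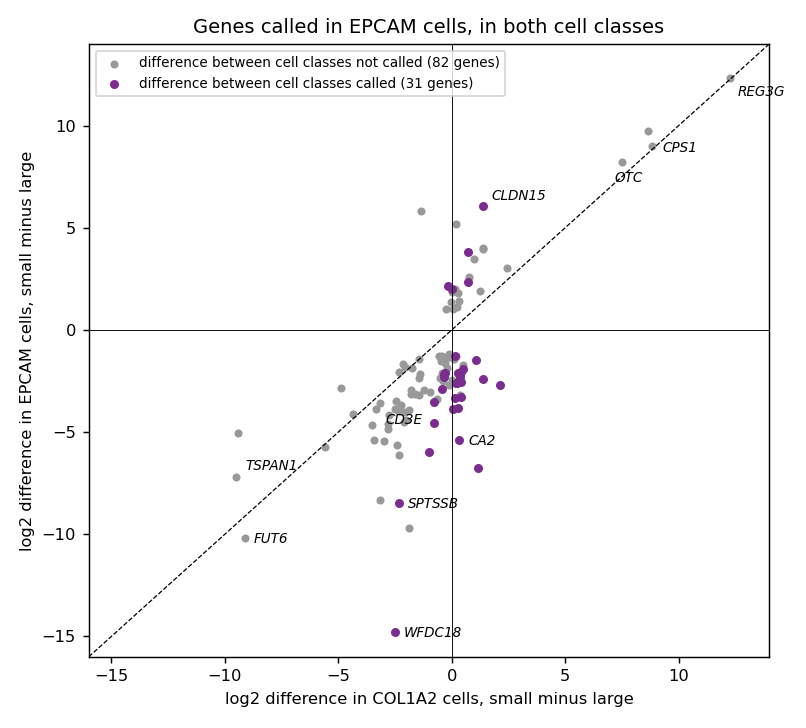
Each point is 1 of the 113 genes called in EPCAM cells that could also be tested in COL1A2 cells; axes are the log2 difference, small minus large intestine, in COL1A2 cells (horizontal) and EPCAM cells (vertical), and the dashed line marks equal differences. Purple points are the 31 genes whose difference itself differed between classes, and they lie within 3 log2 units of 0 on the horizontal axis, while *REG3G*, *CPS1*, *OTC*, and *FUT6* lie near the dashed line. The horizontal values of *REG3G*, *CPS1*, and *FUT6* depend on the prior count, since 1 side had 0 UMIs in COL1A2 cells.

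In the AD cow, EPCAM cells chosen by the same rule gave values for the 133 called genes that have a symbol. Of the 32 called higher in the NB small intestine, 23 were higher in both AD small intestinal libraries than in both AD large intestinal ones, 0 were lower, and 9 overlapped. Of the 101 called higher in the NB large intestine, 77 were higher in both AD large intestinal libraries, 20 overlapped, and 4 were lower. Over all 10953 tested genes with a symbol, 21.5% were higher in both AD small intestinal libraries and 21.7% in both AD large intestinal ones. With 1 cow and 4 libraries no test was made.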

How the data were processed

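Single-cell suspensions were run on droplets with 3' chemistry, and the authors aligned and counted reads with Cell Ranger 3.1.0 against the ARS-UCD1.2 cattle genome (annotation release not given in the sources used here). The deposited files hold raw UMI counts per gene and barcode, 1 matrix for each of 15 libraries. How introns and strand were treated is not given in the sources used here. Of 27270 gene identifiers, 7540 carry no symbol and 119 symbols are shared by several identifiers. The goblet cell mucin *MUC2* has no symbol in the files and is not reported here.

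UMIs of the 7901 EPCAM cells (at least 1 UMI of *EPCAM*, 0 of *PTPRC* and *COL1A2*, 500 to 4000 genes, under 50000 UMIs) were summed per library, as were COL1A2 cells and PTPRC cells, each with UMIs of its own marker and 0 of the other 2. No doublet caller was used in the main analysis, and the rule on 3 markers was its only protection. Genes passing the expression filter of edgeR 4.0.16 (R 4.3.3) were tested with TMM factors and its robust quasi-likelihood test, with Benjamini-Hochberg adjustment over all genes tested and a threshold of 0.05. The interaction of cell class and side was fitted with the library as a block. Summed UMIs per library ran from 3483369 to 43970684. The precision of shares and of ratios over few counts is given as 95% intervals (Wilson for shares), and a count of 0 as the limit that 3 counts give. All of these cover counting error only. Levels are CPM without TMM factors. Genes were grouped in 27 lists of 610 symbols (43 not in the files). Those named were up to 5 called members per list and direction, a preset set of regional marker genes, and, outside the lists, the 10 called genes farthest from 0 per direction with no overlap. A few genes that these rules select are not reported here. Others are said to be named after their values had been seen. The members and lists were chosen with earlier results of these data known. On simulated counts for the comparison of the sides (11360 genes) 66.7%, 92.5%, and 97.0% of genes changed 4-, 16-, and 64-fold were recovered, and 8 of 11161 unchanged genes were called. For the interaction (11575 genes) the shares were 23.9%, 80.6%, and 97.0%. A total of 20 alternatives were run, 6 of which left out 1 library.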

Additional observations from a re-analysis of the deposited data

Results flagged for a closer look

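For 6 named genes the difference between small and large intestine itself differed between EPCAM cells and COL1A2 cells (edgeR quasi-likelihood interaction, adjusted *P* under 0.05, 6 libraries). *CLDN15* and *GHR* had the more positive difference in EPCAM cells, by 5.11 and 3.15 on the log2 scale. The value was -12.15 for *WFDC18*, -6.61 for *SPTSSB*, -5.84 for *CA2*, and -3.63 for *SYTL2*, all with the lower value in EPCAM cells. Without the rectum 0 of 13755 genes were called in this fit (1390 at an unadjusted *P* value under 0.05).

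Another 4 genes called higher in the NB large intestine were higher in both AD small intestinal libraries than in both AD large intestinal ones. Of the other such genes with a symbol, 77 were higher in both AD large intestinal libraries and 20 overlapped. Over all 10953 tested genes with a symbol, 21.5% were higher in both AD small intestinal libraries. The AD difference, as log2 of mean CPM + 1, small over large, was 2.02 for *LTC4S*, which makes leukotriene C4, 1.21 for *CXCR6*, a chemokine receptor of T cells, 1.19 for *C8H9orf43*, and 0.95 for *LAT*, a T cell signalling adaptor. *LTC4S* was at 402 and 647 CPM in the AD duodenum and jejunum and at 99.8 and 157 CPM in the AD cecum and colon. In the NB libraries it was at 3.37, 4.35, and 3.19 CPM in the small and 35.0, 22.2, and 24.1 CPM in the large intestine. In the same AD order *CXCR6* was at 10.7 and 4.77 against 3.71 and 1.86 CPM, and *LAT* at 18.8 and 8.59 against 6.27 and 6.98 CPM. In the AD duodenum the *CXCR6* and *LAT* levels rest on few UMIs, since 3 UMIs already make 8.05 CPM there. Among the 61 AD duodenum members, 93.4% carried a UMI of the leukocyte list, 62.3% a UMI of the epithelial list, and 57.4% a single *EPCAM* UMI. In the other 3 AD libraries 86.4% to 97.8% of members carried a leukocyte UMI and 93.3% to 96.1% an epithelial one. The T cell gene *CD3E* was at 212 CPM in the AD duodenum and at 20.0, 62.7, and 75.0 CPM in the AD jejunum, cecum, and colon, and the part of leukocyte RNA in these 4 differences was not tested. The difference between ages was not tested, and the AD values come from 1 cow.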

How the results depend on the processing

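All 152 calls that could be tested kept their direction in all 20 alternatives. The counts of genes higher in the small and in the large intestine (34 and 118) became 380 and 544 with DESeq2, 66 small with at least 2 *EPCAM* UMIs, 72 large with under 10% mitochondrial UMIs, 22 and 69 without cells carrying *MKI67* or *TOP2A*, and 20 and 61 with cells thinned to 1000 UMIs. In cells whose epithelial UMIs outnumbered other lineages 81 genes were higher in the small intestine. The counts of genes with a higher or lower difference in EPCAM than in COL1A2 cells (22 and 61) became 107 and 123 without a filter on low counts, 235 and 303 with DESeq2, 54 and 97 with at least 2 *EPCAM* UMIs, and 85 and 107 without cells holding a UMI of another lineage. The higher count was 43 with doublet scores removed, 46 where epithelial UMIs outnumbered other lineages, and 43 with thinned cells. Leaving out 1 library at a time gave 0 to 301 genes higher in the small intestine, 0 to 300 higher in the large, and 0 to 202 higher and 0 to 192 lower in the interaction. Without the ileum the differences of the leukocyte genes *CD27* and *CORO1A* reversed, to -4.97 and -2.36, and over the alternatives they ran up to 2.69 and 1.18. The differences of *CD79A*, *CD79B*, and *JCHAIN* were also negative without the ileum, at -5.75, -4.715, and -6.295, and ran up to 4.35, 4.74, and 2.235. In the fit without the ileum *CD27* and *CORO1A* were called (edgeR quasi-likelihood test, adjusted *P* = 0.0482 and 0.0156). *CD79A*, *CD79B*, and *JCHAIN* were not. The cause of these changes of sign was not tested.

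The adjusted *P* value rose, at its highest, to 0.142 for *CPS1*, 0.106 for *CLDN15*, 0.106 for *CA1*, and 0.137 for *WFDC18*. Over the alternatives the log2 difference ran from 5.845 to 10.81 for *CPS1*, from 5.10 to 6.44 for *CLDN15*, and from -14.28 to -9.95 for *CA1*. In the main analysis *CA1* had 0 UMIs in the small intestine, so its fitted size depends on the prior count. The rule on outnumbering and a limit on *TFF3* were chosen after seeing the data, the latter in place of a planned limit on *MUC2*, which was not run since no gene in the files carries that symbol. No paired analysis was possible because the replicate numbers of the segments only follow the order of the samples. Depth limits genes under about 1 CPM in the cecum.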
